A study of Mus musculus with 6 samples.

Results

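Wt1, Nr5a1, Sox9, Foxl2 and Wnt4 are genes that set the identity of the somatic cells of the gonad. They were examined through the H3K27me3 calls that fall in 5 mm9 intervals, 1 around each gene. The intervals ran on chromosome 2 from 104955000 to 105025000 for Wt1 and from 38535000 to 38580000 for Nr5a1. They ran on chromosome 11 from 112630000 to 112665000 for Sox9, on chromosome 9 from 98845000 to 98885000 for Foxl2 and on chromosome 4 from 136820000 to 136865000 for Wnt4. Each of the 5 held calls in all 4 libraries and with both callers. The share of all genomic stretches of this length that do so was not computed. Together they held 15 of the 54748 merged MACS2 regions of the series and 13 of the 36868 merged hiddenDomains regions.

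The mark was mapped by ChIP-seq in spermatogenic cells from the testes of 6-week-old mice of mixed background. Controls were MvhCre;Ezh2fl/+ (2 libraries) and mutants were MvhCre;Ezh2fl/fl (2 libraries), so that both genotypes carried the Cre and at least 1 floxed allele. The Cre is driven by Mvh, a gene of the germ line, and the controls kept 1 wild-type allele of Ezh2. Calls of a histone mark do not show whether Ezh2 was deleted. The labels put the share of spermatogenic cells at 90%. The labels do not tell whether separate animals were used for the libraries, so p-values measure only the spread between these libraries.

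H3K27me3 is a histone mark of silenced genes, written by Polycomb repressive complex 2 through EZH2 or its paralog EZH1. Genes that direct other cell fates are common carriers of it. In the gonad, Wt1 and Nr5a1 act early in the bipotential somatic cells. Sox9 then directs the Sertoli cell fate of the testis, while Foxl2 and Wnt4 belong to the ovarian programme. Sertoli cells of the adult testis express Wt1, Sox9 and Nr5a1, and steroidogenic Leydig cells express Nr5a1. Such cells may be among the cells that were not spermatogenic, and their part in these calls was not tested.

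Promoters of 2 of the 5 genes, Foxl2 and Wnt4, were matched in the RefSeq table (GRCm38.p6). These 2 are shown because no promoter of the other genes was matched. Vertebrate H3K27me3 is often found at CpG-rich promoters. The 250 bases before each gene's start are given, with CpG dinucleotides in capitals. They lie at chr9:98955357-98955606 and chr4:137277385-137277634 of GRCm38.p6, both on the plus strand, and no position of that build was set against the mm9 calls.
Foxl2: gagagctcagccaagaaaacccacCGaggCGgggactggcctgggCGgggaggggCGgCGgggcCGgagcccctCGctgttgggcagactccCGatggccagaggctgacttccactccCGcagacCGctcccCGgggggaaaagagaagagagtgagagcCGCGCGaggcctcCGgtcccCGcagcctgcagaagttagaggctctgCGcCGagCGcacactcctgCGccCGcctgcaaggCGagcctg
Wnt4: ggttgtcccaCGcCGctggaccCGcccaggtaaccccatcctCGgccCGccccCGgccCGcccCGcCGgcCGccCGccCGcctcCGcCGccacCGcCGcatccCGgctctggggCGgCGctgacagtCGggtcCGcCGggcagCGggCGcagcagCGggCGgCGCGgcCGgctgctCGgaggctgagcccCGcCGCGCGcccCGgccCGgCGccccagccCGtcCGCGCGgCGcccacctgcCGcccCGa
The Wnt4 sequence held 44 CpG dinucleotides and was 85.2% G and C. Only 0.539% of the 32851 promoters in the table held as many CpG in these 250 bases. The Foxl2 sequence held 22 CpG dinucleotides at 70.8% G and C, a count reached by 14.8% of promoters, while the median promoter held 6.

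Each locus had a main block of H3K27me3, its widest region, that was present in controls and mutants alike. Foxl2 also had a second region of 6.57 kb that MACS2 called in all 4 libraries. The block at Foxl2 was the widest of the 5, followed by Wt1, while Nr5a1, Sox9 and Wnt4 had shorter ones. Around the blocks lay smaller regions, and the differences between libraries were mostly in these. Over the genome the library that stood apart changed with the caller. With MACS2 it was mutant 1, with 82.0 Mb under peaks where the other 3 had between 64.4 and 69.8 Mb. With hiddenDomains it was mutant 2, with 44.6 Mb where the other 3 had between 50.9 and 54.3 Mb. The part of either library in the differences was not tested beyond leaving it out. A call gives no level of the mark, so the mark at a block shared by the genotypes may still differ in strength.

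**Figure D1:**
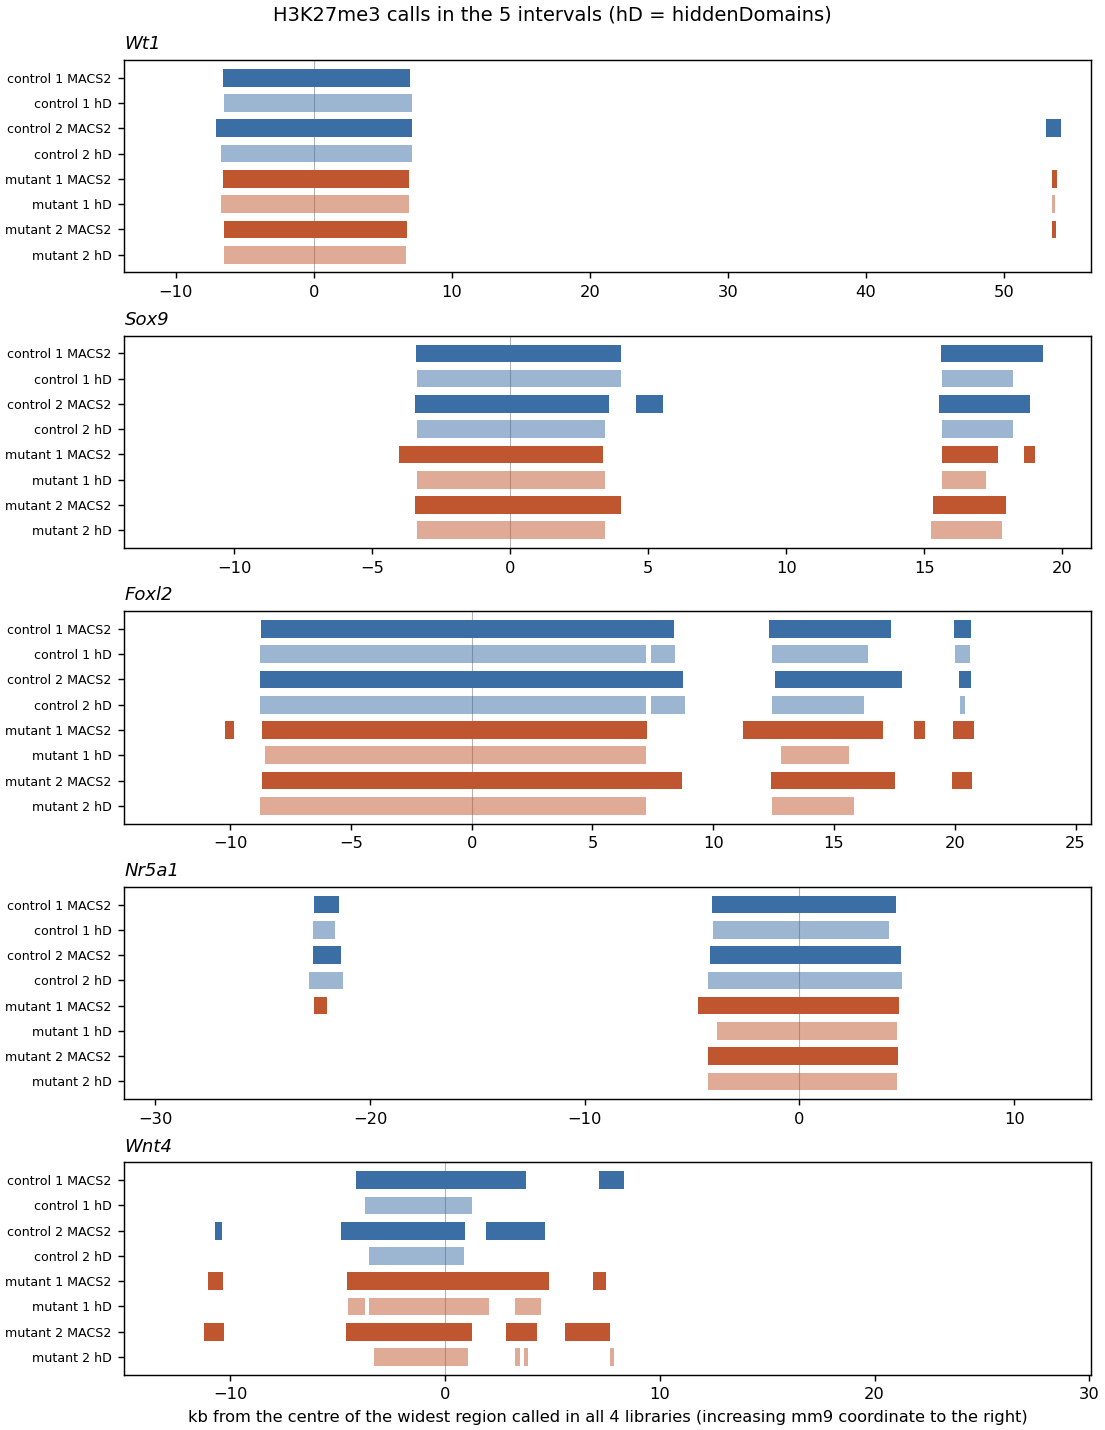
Calls of each library in the 5 intervals, drawn to scale against distance in kb from the centre of the widest region called in all 4 libraries. Dark bars are MACS2 peaks, pale bars are hiddenDomains bins joined where they touch, with controls in blue and mutants in orange. The broad block of each gene appears in every row, whereas the small regions at Nr5a1, Wnt4 and the right side of Foxl2 differ between rows.

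Wt1 encodes a zinc-finger transcription factor needed for formation of the gonad and for maintenance of Sertoli cells. Its block lay on chromosome 2 from 104961611 to 104975823. MACS2 covered it with a single peak of 13.5 kb in control 1, 14.2 kb in control 2, 13.5 kb in mutant 1 and 13.3 kb in mutant 2. The genotypes overlapped, and the controls differed from each other by more than control 1 differed from either mutant. These peaks ranked among the widest 0.524% to 0.614% of the peaks of their libraries. hiddenDomains called 13.6 and 13.8 kb of it in the control libraries, 13.6 kb in mutant 1 and 13.2 kb in mutant 2. Both callers placed both ends of the block within 604 bp over the 4 libraries. To the right of the block the interval was free of calls up to a short region from 105021777 to 105022829. That region had 1.05 kb of peaks in control 2, 0.399 kb in mutant 1 and 0.256 kb in mutant 2, and no peak in control 1. In RefSeq order (GRCm38) the antisense gene Wt1os lies next to Wt1, and which of the 2 genes the block covers was not analysed here.

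Nr5a1 encodes steroidogenic factor 1, a nuclear receptor that governs gonad formation and steroid synthesis. Its block lay on chromosome 2 from 38561701 to 38571177. MACS2 covered 8.59 and 8.91 kb of it in the controls against 9.37 and 8.86 kb in the mutants. Bins covered 8.2 kb in control 1, 9.0 kb in control 2, 8.4 kb in mutant 1 and 8.8 kb in mutant 2, so that the mutants lay between the controls. A second, smaller region from 38543787 to 38545082 differed. Peaks covered 1.20 kb of it in control 1, 1.30 kb in control 2 and 0.618 kb in mutant 1, and there was no peak in mutant 2. hiddenDomains called 1.0 and 1.6 kb there in the controls and none in either mutant. In control 1, 4 of the 5 bins of this region had a display score under the highest value of 1000, and in control 2 it was 2 of 8. In RefSeq order Nr5a1 lies between Adgrd2-ps and Nr6a1, and the region was not assigned to any of them.

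Sox9 encodes the transcription factor that directs supporting cells to the Sertoli fate. Its block lay on chromosome 11 from 112639943 to 112648000 and was covered over 7.42 and 7.0 kb in the controls against 7.40 and 7.45 kb in the mutants by MACS2. Bins covered 7.4 kb in control 1 and 6.8 kb in each of the other 3 libraries. A second region lay from 112659292 to 112663263. MACS2 covered 3.69 and 3.31 kb of it in the controls against 2.40 and 2.64 kb in the mutants, so that both mutants lay below both controls. From first to last peak base the genotypes overlapped, at 3.36 kb in mutant 1 against 3.31 kb in control 2. With hiddenDomains the groups met there, at 2.6 and 2.6 kb in the controls, 1.6 kb in mutant 1 and 2.6 kb in mutant 2. A region of 0.985 kb beside the main block was called in control 2 alone. All 186 bins at Sox9 carried the highest score.

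Foxl2 encodes a forkhead transcription factor that maintains the granulosa cells of the ovary. It had the most densely marked interval, with 57.1% and 58.1% covered by peaks in the controls against 58.4% and 58.3% in the mutants. The main block lay on chromosome 9 from 98850628 to 98868126. MACS2 covered 17.1 and 17.5 kb of it in the controls against 15.9 and 17.4 kb in the mutants, the low value being that of mutant 1. A second region from 98870628 to 98877198 held 5.05 and 5.26 kb of peaks in controls against 5.77 and 5.11 kb in mutants. The rightmost of the shared regions, from 98879243 to 98880173, held 0.677 and 0.487 kb in controls against 0.870 and 0.828 kb in mutants. Both mutants lay above both controls there. Regions of 0.362 and 0.425 kb were called in mutant 1 alone.

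hiddenDomains gave another picture of the right side of the Foxl2 locus. Bins covered 16 kb of the main block in both controls and in mutant 2, and 15.8 kb in mutant 1. From 98866801 to 98868200, just right of these bins, 1.0 and 1.4 kb were called in the controls and none in the mutants. MACS2 had placed the right end of the block in that stretch in both controls and in mutant 2. Bins of the second region covered 4.0 and 3.8 kb in controls against 2.8 and 3.4 kb in mutants. Bins of the rightmost covered 0.6 and 0.2 kb in the controls and none in the mutants, although MACS2 called this region in all 4 libraries. The pattern of this small region thus depended on the caller. In RefSeq order the noncoding gene Foxl2os lies next to Foxl2.

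Wnt4 encodes a secreted ligand of the WNT family that promotes ovarian development. Of the base pairs under a peak in any library, 45% were under peaks in all 4, against 67.4% to 87.0% at the other loci. Over the genome this share was 40.2%, so Wnt4 lay near it and the other loci above it. With bins the share was 52.5% at Wnt4 and 54.0% over the genome. The block lay on chromosome 4 from 136830075 to 136839792. MACS2 covered 7.95 and 8.49 kb of it in the controls against 9.44 and 7.29 kb in the mutants. The block was 1 peak in control 1 and in mutant 1, and 2 peaks in control 2 and in mutant 2. hiddenDomains called a shorter core of 5.0 and 4.4 kb in the controls, 6.4 kb in mutant 1 and 4.4 kb in mutant 2. Right of the core, from 136838201 to 136839400, bins covered 1.2 kb in mutant 1 and 0.4 kb in mutant 2 and none in the controls. MACS2 peaks reached into that stretch in all 4 libraries.

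The smaller regions at Wnt4 were also uneven. The left one, from 136823716 to 136824651, had 0.312 kb of peaks in control 2, 0.674 kb in mutant 1 and 0.936 kb in mutant 2, and none in control 1. The right one, from 136840536 to 136843246, had 1.13 kb in control 1, 0.617 kb in mutant 1 and 2.09 kb in mutant 2, and none in control 2. In the left region both mutants lay above both controls, although control 2 and the mutants all had a peak there, and in the right region the genotypes overlapped. For single regions, here and at Sox9 and Foxl2, the genome-wide share with separate covered lengths was not computed.

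**Figure D2:**
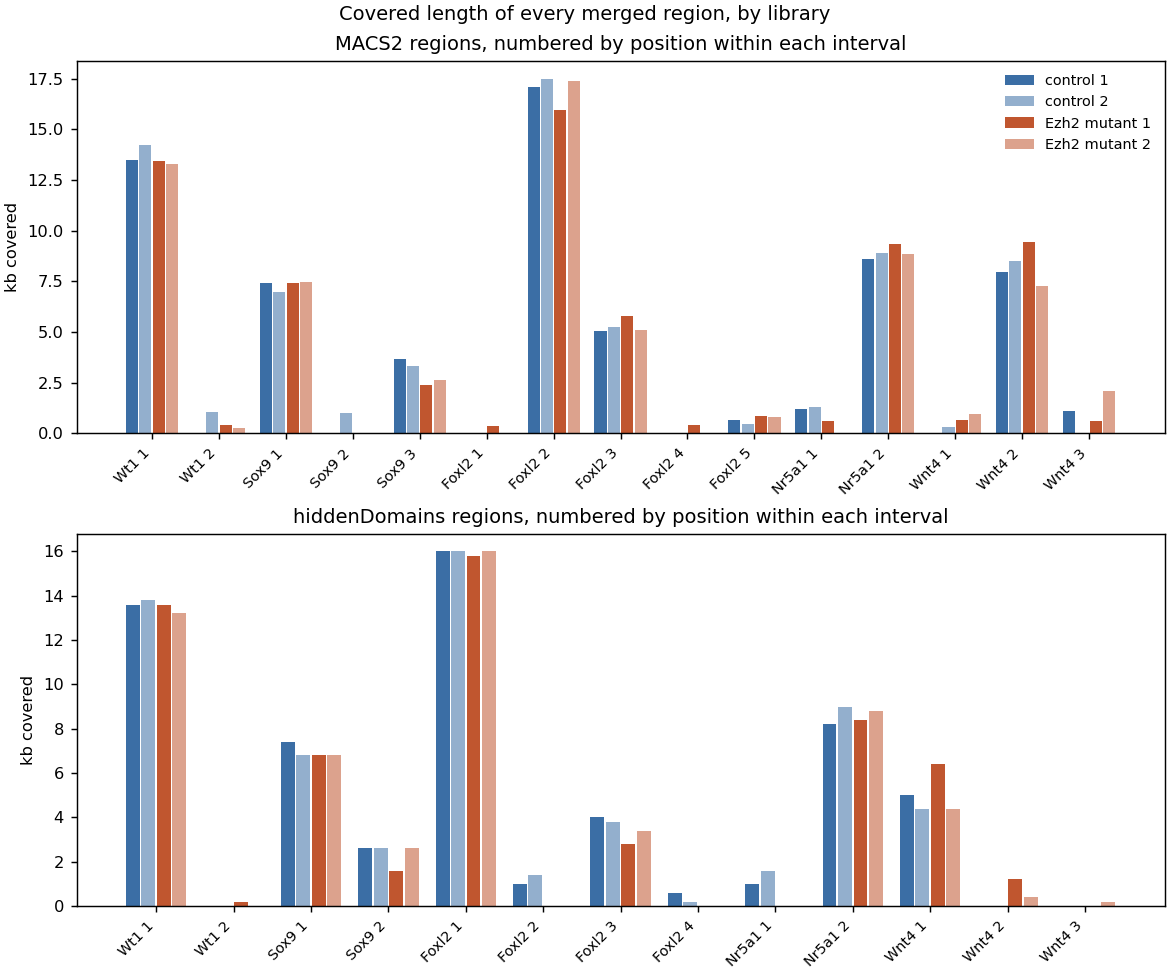
Kilobases covered by calls in every merged region of the 5 intervals, for each library, with MACS2 regions above and hiddenDomains regions below. Regions are numbered by position within an interval. The tallest groups of bars, at Foxl2 and Wt1, are of like height in all 4 libraries, and bars are missing for some libraries only in regions of under 3 kb.

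The first comparison asked whether the mutants retained the regions of the controls. With MACS2, 9 of the 15 regions had peaks in both controls, and 8 of these 9 also in both mutants, where over the genome 78.6% were retained. The exception was the small Nr5a1 region, called in mutant 1 only among the mutants. In the other direction 11 regions had peaks in both mutants, 8 of them also in both controls, against 77.7% over the genome. No region was called in both controls and in neither mutant, and none in both mutants and in neither control. Over the genome these patterns made up 10.6% and 12.7% of the regions called in both libraries of a genotype. Retention went with width over the genome, where 33.7% of control regions under 1 kb and 83.1% of those of 1 to 5 kb recurred in both mutants. In the class of 5 to 20 kb, to which 6 control regions here belonged, 99.8% recurred genome-wide, as did all 6.

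With hiddenDomains 7 of 10 regions with bins in both controls had bins in both mutants too, against 76.9% over the genome. The other 3, the small Nr5a1 region, the stretch right of the Foxl2 block and the rightmost Foxl2 region, were called in neither mutant, a pattern of 13.3% of such regions over the genome. Of the 8 regions with bins in both mutants, 7 had bins in both controls, against 90.3% over the genome. The remaining 1 was the stretch right of the Wnt4 core, and the genome-wide share of that pattern was 5.83%. No test was made of these shares.

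By base pairs, 62.8 kb of the 5 intervals was under peaks in both controls, and 91.6% of it was under peaks in both mutants, against 78.4% over the genome. With bins the values were 57.6 kb and 91.0%, against 77.7%. By locus the retained share with MACS2 was 98.4% at Wt1, 93.1% at Foxl2, 87.7% at Nr5a1, 86.6% at Wnt4 and 86.1% at Sox9. Peaks called in both controls and neither mutant covered 0.67 kb at Sox9, 0.583 kb at Nr5a1, 0.078 kb at Wt1 and 0.032 kb at Foxl2, and none at Wnt4. Together they made 2.17% of the length under peaks in both controls, against 10.1% over the genome. The reverse pattern covered 0.671 kb at Wnt4, 0.092 kb at Nr5a1 and 0.087 kb at Foxl2, and none at Wt1 or Sox9. It made 1.39% of the length under peaks in both mutants, against 10.01% over the genome. The genome-wide shares by base pairs were not matched for region width. With MACS2, 6 control regions here were of 5 to 20 kb, a class of which 99.8% recurred in both mutants genome-wide. Whether the higher retained share goes beyond that of wide regions was not tested.

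The ends of the shared regions were compared next. Of the 16 ends of the 8 MACS2 regions called in all libraries, 12 lay within 1 kb over the 4 libraries, with a median range of 640.5 bp. The genome-wide median was 507 bp. The widest range, 1509 bp, was at the right end of the Foxl2 block, where mutant 1 stopped short of the other 3 libraries. Both mutants lay on the same side of both controls at 5 of the 16 ends, against 48.8% over the genome. With bins the genotypes separated at 3 of 14 ends, against 32.9%. Neither share was above that of the genome.

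The covered length of each interval was then compared between genotypes. At Sox9 the peak-covered length was 11.1 and 11.3 kb for the controls against 9.80 and 10.1 kb for the mutants. The difference of -1.26 kb was larger than the spread within either genotype (two-sided exact permutation p = 0.333, the smallest that 2 libraries against 2 can give). At Wnt4 it was 9.07 and 8.80 kb for the controls against 10.7 and 10.3 kb for the mutants, a difference of 1.59 kb in the opposite direction (exact permutation p = 0.333). The Wnt4 difference was also positive with bins, at 1.60 kb, and after scaling to equal totals, at 1.07 kb for peaks and 2.20 kb for bins. The exact permutation p was 0.667 for the bins and for the scaled peaks, where the genotypes no longer separated, and 0.333 for the scaled bins. The Sox9 difference was -1.79 kb with scaled peaks (exact permutation p = 0.333), -0.80 kb with bins and 0.385 kb with scaled bins (exact permutation p = 0.667 and 1), so its direction turned only with scaled bins among these settings. At Foxl2 the groups were also separate, at 22.8 and 23.2 kb against 23.4 and 23.3 kb, but only by 0.063 kb, and the difference of 0.302 kb became -0.880 kb after scaling (exact permutation p = 0.333 and 1). At Wt1, with 13.5 and 15.3 kb in the controls against 13.9 and 13.5 kb in the mutants, and at Nr5a1, with 9.79 and 10.2 against 9.99 and 8.86 kb, the groups overlapped. Their exact permutation p-values were 1 and 0.667. Adjusted over the 5 intervals, the lowest p was 0.556. Both mutants lay below both controls in 1 interval and above them in 2. For MACS2 coverage of all 100-kb windows tested these shares were 35.1% and 21.4%.

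**Figure D3:**
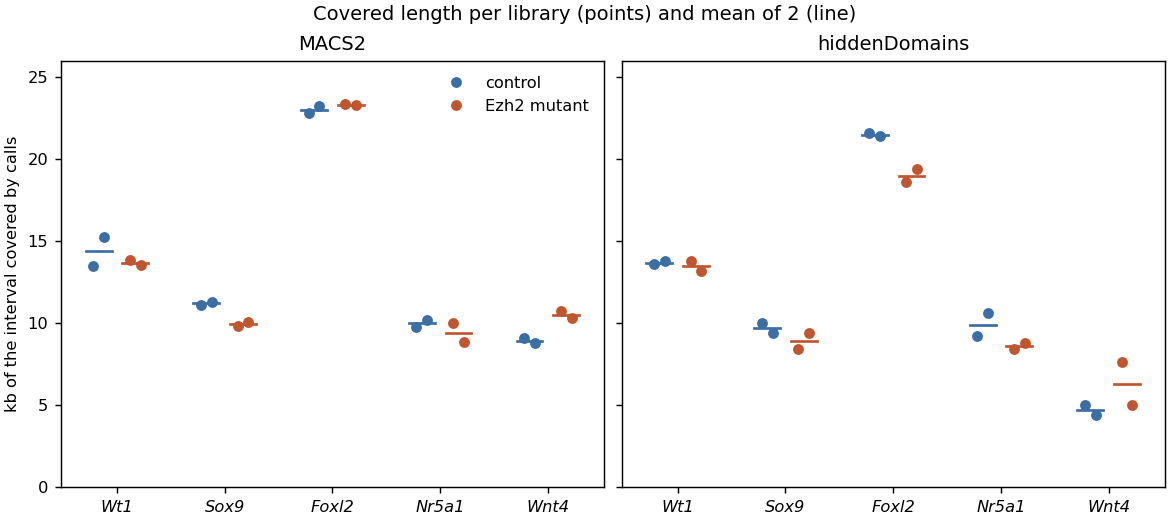
Kilobases of each interval covered by calls, by gene, for MACS2 (left) and hiddenDomains (right). Points are libraries and lines are means of 2. With MACS2 the mutant points lie below the controls at Sox9 and above them at Wnt4, and with hiddenDomains they lie below the controls at Foxl2 and Nr5a1.

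With hiddenDomains the separate intervals were others. At Foxl2 bins covered 21.5 kb ± 0.141 (SD, n = 2) in the controls and 19.0 kb ± 0.566 (SD, n = 2) in the mutants. This difference of -2.5 kb, or -11.6%, was of the opposite sign to that of the peaks. At Nr5a1 bins covered 9.2 and 10.6 kb for the controls against 8.4 and 8.8 kb for the mutants. The exact permutation p was 0.333 for both, or 0.833 adjusted over the 5 intervals. At Sox9 the groups met at 9.4 kb, and at Wnt4 control 1 and mutant 2 both had 5.0 kb. Both mutants lay below both controls in 2 of 5 intervals and above them in none, against 48.1% and 7.75% of the 100-kb windows. Over the genome, bins covered 53.4 Mb in control 1, 54.3 Mb in control 2, 50.9 Mb in mutant 1 and 44.6 Mb in mutant 2. When each library was scaled to the same total, an alternative added after seeing the data, the difference in bins became 0.0322 kb at Foxl2 and -0.137 kb at Nr5a1 (exact permutation p = 1 for each).

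The number of calls did not separate the genotypes with MACS2 at any of the 5 loci. There were between 1 and 3 peaks per interval in the controls and between 1 and 5 in the mutants. With hiddenDomains, Foxl2 had 4 joined calls in each control and 2 in each mutant, and Nr5a1 had 2 and 1. Wnt4 had 1 call in each control and 3 and 4 in the mutants (exact permutation p = 0.333 for each of the 3 loci, or 0.556 adjusted over the 5). Fewer joined calls in both mutants than in both controls were found in 14.1% of the 100-kb windows, and more in 6.85%. With MACS2 these shares were 9.3% and 15.7%.

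The callers agreed least at Wnt4. Bins covered between 46.7% and 70.8% of the peak-covered length there, and between 79.6% and 100% at the other 4 loci. Over the genome this share was 76.1% and 74.8% in the controls against 60.1% and 67.0% in the mutants. Nearly all bins lay inside peaks, with 96.2% or more of their length in each interval and library. Of the 1158 bins in the 5 intervals 97.8% carried the highest display score, where the genome-wide share ran from 91.0% to 93.1% by library. What the score stands for is not stated by the sources used here.

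The last comparison placed the loci in a test over the genome. In hiddenDomains coverage of 9183 windows of 100 kb, none of the 6 windows that overlap the intervals passed limma with Benjamini-Hochberg adjustment, and 0% of all windows did. The lowest limma adjusted p of all windows was 0.0559, close to the threshold of 0.05. The Foxl2 window held 23.2 and 23.6 kb in controls against 19.4 and 20.8 kb in mutants (difference -0.21 on the log2 scale, limma SE 0.05, adjusted p = 0.123). The Sox9 window had 12.6 and 11.8 kb against 10.2 and 10.8 kb (difference -0.20 on the log2 scale, limma SE 0.06, adjusted p = 0.149). Both windows passed an unadjusted limma threshold of 0.05, as did 27.6% of all windows in the same direction. With totals of bins scaled to be equal, the log2 differences were -0.04 for both Foxl2 and Sox9. Neither window then passed that threshold (limma adjusted p = 0.851 and 0.882). Without scaling, the median log2 difference of all windows in bins was -0.15. With MACS2 peaks the Sox9 window had -0.36, and with scaled peaks -0.44 (limma adjusted p = 0.195 and 0.188). It passed the unadjusted threshold in both, as did 1312 of 10776 and 1484 of 10758 windows in the same direction. The Foxl2 window had -0.03 and -0.11 with these peaks and did not pass.

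In the Wnt4 window the log2 difference was 0.29 (SE 0.24, limma adjusted p = 0.473), with 7.6 kb in mutant 1 and 5.0 kb in mutant 2 against 5.4 and 4.4 kb in the controls. The difference was 0.03 without mutant 1 and 0.55 without mutant 2. Windows higher in the mutants at an unadjusted p under 0.05 made up 2.48% of the genome, and none of the 6 was among them. With totals of bins scaled to be equal, the Wnt4 difference was 0.44 (limma adjusted p = 0.181). The window then passed the unadjusted threshold, as did 819 of 9094 windows in the same direction. With peaks the Wnt4 difference was -0.038, and with scaled peaks -0.11. The window of the Wt1 block had a limma log2 difference of -0.03 (SE 0.04, adjusted p = 0.631), and that of Nr5a1 had -0.18 (SE 0.11, adjusted p = 0.365). The Nr5a1 value was -0.31 without control 1 and -0.05 without control 2. The next window on the right of Wt1 had -0.20 (SE 0.08, limma adjusted p = 0.230), but its coverage lay almost wholly outside the interval. By bin coverage in the controls the Foxl2 window was within the top 1.5% of windows and that of the Wt1 block within the top 7.06%. Sox9 was within the top 9.13%, Nr5a1 within 10.4% and Wnt4 within 39.4%. The rank of Wnt4 depended on the caller. With peaks it was within the top 13.8%, where Foxl2 was within 1.6%, Sox9 within 7.34%, Wt1 within 8.91% and Nr5a1 within 12.3%.

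**Figure D4:**
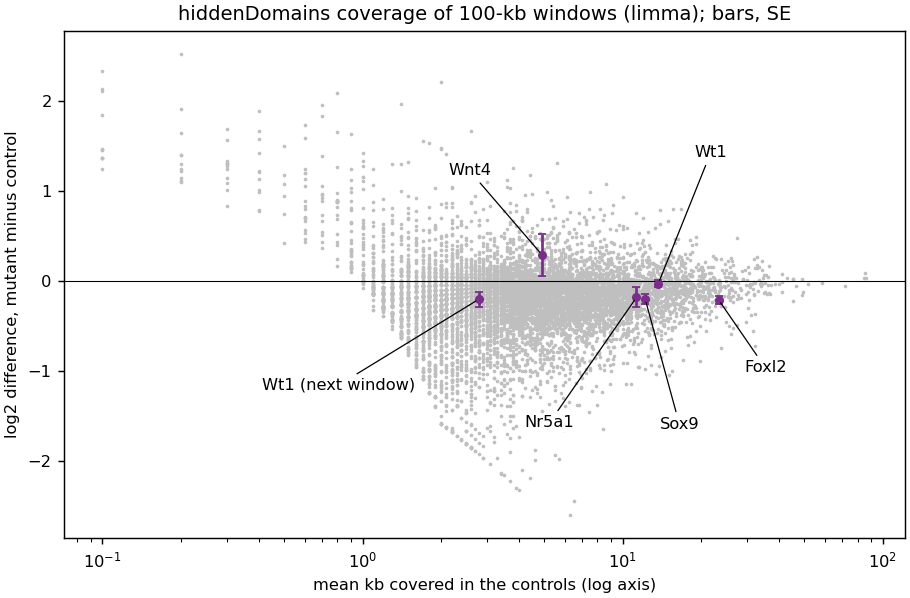
Log2 difference in hiddenDomains coverage, mutant minus control, of each 100-kb window against its mean coverage in the controls in kb (log axis, windows without control coverage not drawn). Grey points are all windows tested and purple points with SE bars are the 6 windows that overlap the intervals. The windows of Wt1, Nr5a1, Sox9 and Foxl2 lie between -0.21 and -0.03 and that of Wnt4 at 0.29, within the range of the other windows.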

How the data were processed

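The H3K27me3 ChIP-seq data comprised 2 control libraries and 2 Ezh2 mutant libraries. The 2 input samples had no processed file used here. Bowtie, SAMtools and bedtools were used with the mm9 build, per the submitters' processing notes. For each library the authors deposited MACS2 peaks, per the file headers, and hiddenDomains bins of 200 bp, per the file names. Peaks are positions only, with no height, fold or p-value. Bins carry a display score of 4 values, deposited by the authors without its meaning. The sources used here name no version, threshold or control track. Read depth is unknown, and calls are not normalised for it.

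Touching calls were joined. Regions were the union of the 4 libraries, and a region counted as called where at least 1 bp was covered. Covered lengths were clipped to the interval. Exact permutation tests, two-sided, compared lengths and numbers of calls. Coverage of 100-kb windows, log2(kb + 1), was tested with limma 3.58.1 (R 4.3.3), keeping windows whose mean reached 1 kb. A Benjamini-Hochberg adjusted p under 0.05 made a call. The added 1 kb makes a log2 difference understate changes where coverage is sparse. The interval arithmetic and the fit were tested on simulated data. All 5 genes, every merged region of their intervals and the windows that overlap them are reported. The genes and tests were chosen with earlier results of these data known. Gene names and promoters came from RefSeq (GRCm38.p6), whose positions were not converted to mm9. A list of other gonad genes was therefore not analysed here. Alternatives changed the caller, scaling, clipping, interval ends, peak width, overlap, merging, windows, pseudocount, coverage minimum, a block for sample number and each library left out.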

Additional observations from a re-analysis of the deposited data

How the results depend on the processing

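Of 240 values recomputed under an alternative, 210 were counted as kept, 14 changed sign and 16 moved. Kept meant the same direction, the same side of the threshold or a count within 1.5 times of the reported one. For the number of calls, a difference of 0 at either setting also counted as kept, as at Sox9, Wt1, Foxl2 and Nr5a1. The 210 include covered lengths that could not change. These were those of whole calls, as no call crossed an interval edge, and those under the replicate block. No window of the 5 genes passed limma under any of these alternatives, and 2 libraries against 2 cannot give an exact permutation p under 0.333. Covered length reversed at Foxl2 with bins (-2.5 kb), with scaled totals (-0.880 kb) and with peaks of at least 1 kb (-0.359 kb). With scaled bins it reversed at Wt1 (1.47 kb) and Sox9 (0.385 kb). Leaving out 1 library each time gave -1.57 to 0.201 kb at Wt1, where the positive value came without control 2, -1.41 to -1.11 kb at Sox9, 0.0945 to 0.510 kb at Foxl2, -1.13 to -0.01 kb at Nr5a1 and 1.38 to 1.79 kb at Wnt4. The number of calls at Foxl2, 1 more in the mutants with peaks, was 2 fewer with bins (-2). The outer extent of the widest region reversed with bins at Sox9 (-0.3 kb) and became 0 kb at Nr5a1. Without mutant 1 it was 0.072 kb at Foxl2, where the range was -1.36 to 0.072 kb. Without control 1 it was -0.334 kb at Wnt4, where the range was -0.334 to 1.21 kb.

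Control-only and mutant-only regions, 0 and 0 with peaks, were 3 and 1 with bins, and 1 and 1 when at least 50% of a region had to be covered. With 1 library left out they ranged from 0 to 1 and from 0 to 2. Over the genome, scaled totals gave 173 windows higher and 340 lower in mutants, the lack of a coverage minimum gave 30 and 622, and scaled peaks gave 390 and 256, an alternative added after seeing the data (limma, adjusted p under 0.05). Each of these 3 settings gave calls where the reported setting gave 0, and the cause was not tested. At an unadjusted p under 0.05 limma at the reported setting gave 228 higher and 2538 lower windows. The log2 difference reversed for Wt1 with scaled totals (0.13), for the better covered 50-kb window of Nr5a1 (0.00094) and for Wnt4 with peaks (-0.038) and scaled peaks (-0.11).

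Libraries with the same sample number did not deviate together (r = 0.0442 over 9183 windows, across windows that are not independent). A single correlation of call coverage cannot tell whether the libraries were prepared in pairs. In a balanced design a replicate block cannot change a difference of means, so the interval differences stay at -0.686 kb for Wt1, -1.26 kb for Sox9, 0.302 kb for Foxl2, -0.571 kb for Nr5a1 and 1.59 kb for Wnt4 by construction. Under the block the exact permutation p was 0.5 at Sox9, Foxl2 and Wnt4 in place of 0.333. As 0.5 is the smallest value that the blocked test can give, this rise was fixed by the design. The block gave 0 windows past the limma threshold, and the Sox9 window lost its unadjusted pass. Without depth or signal, a short region called in some libraries only cannot be told from one near the threshold of the caller.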

Other observations

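The 500 kb on both sides of each interval, which the choice of intervals did not cover, were also measured. Around Sox9 the other calls were sparse and shorter in the mutants with both callers. MACS2 peaks covered 20.6 and 20.3 kb there in controls against 12.1 and 12.2 kb in mutants, and bins covered 14.2 and 13.6 kb against 7.4 and 6.0 kb. The nearest peak on the left of the Sox9 calls lay 30.3 and 31.3 kb away in the controls and 60.2 and 60.8 kb away in the mutants. With bins that distance was 60.6 kb in both controls, 61 kb in mutant 1 and 158 kb in mutant 2. Around Wnt4 the mutants had more, at 108 and 114 kb of peaks in the controls against 170 and 131 kb, and 68.6 and 66.0 kb of bins against 92.0 and 69.2 kb. Around Wt1 both mutants were below both controls with both callers, at 69.9 and 69.6 kb of peaks against 69.0 and 62.6 kb. Each of these differences had a two-sided exact permutation p of 0.333, the smallest possible with 2 libraries against 2, or 0.417 adjusted over the 5 loci. The callers did not agree for Foxl2, where the groups overlapped with peaks and the mutants were lower with bins. They did not agree for Nr5a1 either, where the mutants were higher with peaks and the groups overlapped with bins. No genome-wide share was computed for stretches of this size, and the lengths were not scaled to equal totals. Of 100-kb windows, 35.1% with peaks and 48.1% with bins had both mutants below both controls. Both mutants lay above both controls in 21.4% and 7.75%.

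Nr5a1 lay at the edge of a long stretch without calls. The next peak on its right was between 214.8 and 215.4 kb away in the 4 libraries. At Foxl2 that distance ran from 159.7 to 183.9 kb.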
